A study of Mus musculus with 10 samples.

Results

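The genes that carry tryptophan toward NAD were followed in the liver. They were Tdo2, Afmid, Kmo, Kynu, Haao, Acmsd, Qprt, Naprt, Nampt and Nnmt. These members were taken by gene symbol, each symbol matched 1 row, and together they are 10 of the 47729 genes in the deposited table. The tested livers came from female mice described as whole-body Etnppl knockouts (Etnppl KO), and the controls from Etnppl wild-type (WT) females, with 5 libraries per genotype. Etnppl encodes ethanolamine phosphate phospholyase, which breaks down phosphoethanolamine. All the mice had 8 weeks of standard chow before 10 weeks on a high-fat diet in which fat supplied 45% of the energy. The strain, the age at the start and the extent of the deletion are not given in the sources. Samples are numbered within a genotype and nothing states that they are separate animals, so the p-values reflect sample-to-sample spread that may be technical.

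The liver is the main site where dietary tryptophan is taken apart. TDO2 opens the indole ring, and AFMID, KMO, KYNU and HAAO convert the product through kynurenine and 3-hydroxyanthranilate to an unstable intermediate, aminocarboxymuconate semialdehyde. At that branch point ACMSD decarboxylates the intermediate toward glutaryl-CoA and full oxidation, while the portion that closes spontaneously to quinolinate is taken by QPRT into the NAD pool. NAPRT and NAMPT enter the same pool from nicotinic acid and from nicotinamide, and NNMT removes nicotinamide by methylating it.

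Values are given as FPKM, which corrects fragment numbers for library size and transcript length, so levels of different genes can be compared per length. Depth, read from the size of the smallest steps in FPKM, was 21100000 to 28400000 fragments per library. Etnppl was at 7.36 to 10.19 FPKM in KO livers, against 27.57 to 56.55 FPKM in WT livers, and every library matched its label. Its RNA was thus lower but not absent in KO livers (fold 0.252). Differences were tested with limma on log2(FPKM + 0.5) over the 12395 genes whose mean reached 0.5 FPKM, and p-values were adjusted over all of them by the Benjamini-Hochberg method with a threshold of 0.05. All 10 members passed that filter. KO replicate 3 stood apart in pancreas markers, since 6 of them summed to 147 FPKM there. Their sum was 0.24 to 0.81 FPKM in the other KO libraries and 0.20 to 1.78 FPKM in WT. WT replicate 1 had the highest neutrophil marker sum, 24.57 FPKM, against 2.20 to 8.76 FPKM in KO. WT replicate 2 had the highest erythroid marker sum, 789 FPKM, against 449 to 597 FPKM in KO. The hepatocyte markers, Alb among them, summed to 75440 to 88014 FPKM in KO and 67971 to 79284 FPKM in WT, and the adipose, skeletal muscle and kidney marker lists had no gene above the filter. In bulk RNA, fewer cells of a type and less RNA per cell cannot be told apart.

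None of the 10 members passed the limma threshold (smallest adjusted p = 0.178, for Qprt), beside 8 of the 12395 genes tested (0.0645%). At an unadjusted p under 0.05 there were 3 members, Qprt, Acmsd and Kynu, all higher in KO, where 2.69% of the genes tested were higher at that level and 11.8% differed in either direction. A log2 fold change above 0 was found in 7 members and one below 0 in 3, with a median of 0.10, while 34.9% of all genes tested were above 0, with a median of -0.05. The 10 hepatocyte markers leaned the same way, 8 higher and 2 lower in KO with a median of 0.13, 2 of the higher ones at an unadjusted p under 0.05. With median-of-ratios scaling, 9 members and 48.9% of all genes tested were above 0. The members and the lists below were chosen with earlier results of these data known. Their counts are therefore descriptions and not independent support.

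**Figure D1:**
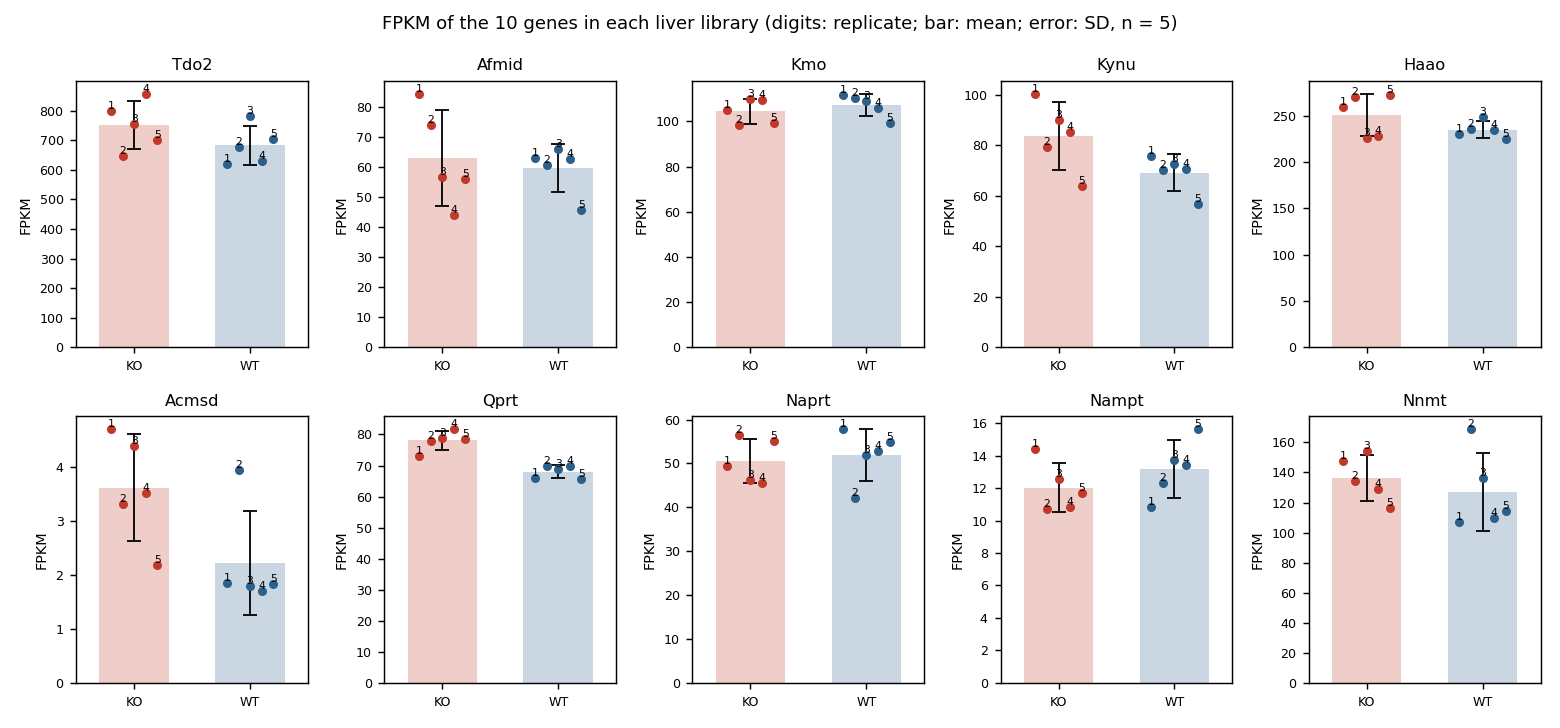
FPKM (vertical axes, each from 0) of the 10 genes in KO and WT livers. Points are libraries with their replicate digit, bars are means and error bars are SD (n = 5 per genotype). The Qprt points of KO start at 73.2 FPKM, above all those of WT, which reach 69.9 FPKM. In Acmsd the WT replicate 2 library, at 3.95 FPKM, lies above the other 4 WT libraries.

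Qprt, quinolinate phosphoribosyltransferase, makes nicotinate mononucleotide and is the step that commits tryptophan carbon to NAD. It was at 73.2, 77.9, 78.95, 81.7 and 78.65 FPKM in KO replicates 1 to 5, against 65.9, 69.9, 68.9, 69.9 and 65.6 FPKM in WT replicates 1 to 5. Every KO liver lay above every WT liver, and Qprt was the only member whose groups did not overlap, where 2.79% of the genes tested had separate groups and 0.581% had them with KO higher. The mean was 78.1 ± 3.10 FPKM in KO and 68.0 ± 2.15 FPKM in WT (SD, n = 5 each), 1.15-fold higher in KO (95% CI 1.06 to 1.24). The difference did not pass over all genes (limma adjusted p = 0.178). For this single gene p was 0.00794 by an exact permutation test (two-sided, unadjusted), which is the smallest value the design can give. Of the 10 members Qprt had the lowest coefficient of variation in each genotype, 3.97% in KO and 3.17% in WT. Without KO replicate 3, the library with pancreas markers, the fold was 1.14.

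Acmsd, the decarboxylase that draws the shared intermediate away from NAD, was the least abundant member and had the largest fold change of the 10. It was at 4.71, 3.32, 4.39, 3.53 and 2.18 FPKM in KO replicates 1 to 5, against 1.85, 3.95, 1.79, 1.70 and 1.83 FPKM in WT replicates 1 to 5. Apart from WT replicate 2, the WT livers lay within 1.70 to 1.85 FPKM, below every KO liver. WT replicate 2 lay above 3 of the 5 KO livers. The mean was 3.63 ± 0.994 FPKM in KO and 2.22 ± 0.967 FPKM in WT (SD, n = 5 each). On the log2(FPKM + 0.5) scale, which understates the change of so low a gene, the level was 1.54-fold higher in KO (95% CI 1.10 to 2.14, limma adjusted p = 0.279). The unadjusted p was 0.0476 by the exact permutation test. Without WT replicate 2 the WT mean was 1.79 ± 0.0665 FPKM (n = 4) and the fold 1.75 (95% CI 1.36 to 2.27), still short of the threshold (limma adjusted p = 0.0991). Without KO replicate 3 the fold was 1.46, and without KO replicate 1, the highest library, it was 1.44.

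At the estimated depths, and with the annotated transcripts of 2082 and 2717 bases, Acmsd rested on about 84 to 289 fragments in a KO library and 72 to 214 in a WT library. WT replicate 2 had about 158 to 214 of these fragments, and the other WT libraries 72 to 116. The exons of Acmsd share 94 bases with the antisense gene 2900009J06Rik on the opposite strand. That gene was at 0 to 0.46 FPKM in KO libraries and 0 to 0.67 FPKM in WT libraries. It was highest in WT replicate 2, and at 0.62 FPKM in WT replicate 4, the library with the lowest Acmsd. How reads of the shared bases were divided is not known. WT replicate 2 also had the highest WT values of Nnmt and Etnppl and the lowest of Naprt. Its Qprt value, 69.93 FPKM, was level with the 69.90 FPKM of WT replicate 4. Of the pericentral hepatocyte markers, Glul, Cyp2e1, Cyp1a2, Slc1a2 and Rhbg had their lowest WT value there, Oat its highest, and Axin2 and Lgr5 neither. Of the periportal markers, Hal, Ass1, Asl, Cps1, Gls2 and Arg1 had their highest WT value there, but not Cyp2f2, Sds or Pck1. Their part in the Acmsd values was not tested.

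Of the route that feeds the branch point, Tdo2, the heme enzyme that opens the ring and sets the rate of hepatic tryptophan loss, was by far the most abundant member. It was at 799, 646, 756, 857 and 699 FPKM in KO replicates 1 to 5, against 619, 676, 783, 631 and 703 FPKM in WT replicates 1 to 5. The groups overlapped, with 2 KO livers above every WT liver. The mean was 751 ± 82.6 FPKM in KO and 682 ± 65.5 FPKM in WT (SD, n = 5 each), a fold of 1.10 (95% CI 0.963 to 1.26) that did not pass (limma adjusted p = 0.573).

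Afmid, the formamidase that releases kynurenine, was at 84.5, 74.2, 56.7, 44.1 and 56.1 FPKM in KO replicates 1 to 5, against 63.1, 60.8, 65.95, 62.7 and 45.8 FPKM in WT replicates 1 to 5. The KO livers spread on both sides of the WT livers, 2 above all of them and 1 below all of them. Its coefficient of variation was 25.4% in KO and 13.4% in WT. The fold was 1.04 (95% CI 0.812 to 1.33, limma adjusted p = 0.926), and its direction turned with array weights and without KO replicate 1 or 2 or WT replicate 5. The exons of Afmid share 1566 bases with Gm20708 on the same strand and 83 bases with Tk1 on the opposite strand. Gm20708 was at 0 to 0.69 FPKM in the 10 libraries and Tk1 at 7.03 to 12.83 FPKM, and how reads of the shared bases were divided is not known.

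Kmo, the flavin enzyme that hydroxylates kynurenine, was at 105, 98.4, 109.98, 109.56 and 99.3 FPKM in KO replicates 1 to 5, against 112, 110.25, 109, 106 and 99.1 FPKM in WT replicates 1 to 5, and the groups covered almost the same range. The fold was 0.974 (95% CI 0.892 to 1.06, limma adjusted p = 0.837), and its direction turned with median-of-ratios scaling.

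Kynu, the vitamin B6 enzyme that splits 3-hydroxykynurenine, was at 100.39, 79.4, 89.8, 85.05 and 63.7 FPKM in KO replicates 1 to 5, against 75.6, 70.1, 72.7, 70.8 and 56.6 FPKM in WT replicates 1 to 5. In 4 KO livers Kynu lay above every WT liver, and KO replicate 5 lay below all but WT replicate 5. The mean was 83.7 ± 13.6 FPKM in KO and 69.1 ± 7.34 FPKM in WT (SD, n = 5 each), 1.20-fold higher in KO (95% CI 1.01 to 1.42). This did not pass (limma adjusted p = 0.387; unadjusted exact permutation p = 0.0873). Leaving out single libraries moved the fold between 1.14 and 1.28.

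Haao, the dioxygenase that forms the branch-point intermediate, was at 259, 270.15, 226, 228 and 272 FPKM in KO replicates 1 to 5, against 230.06, 236, 249, 235 and 224 FPKM in WT replicates 1 to 5. In 3 KO livers Haao lay above every WT liver, and the other 2 lay within the WT range. The fold was 1.07 (95% CI 0.962 to 1.18, limma adjusted p = 0.633).

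**Figure D2:**
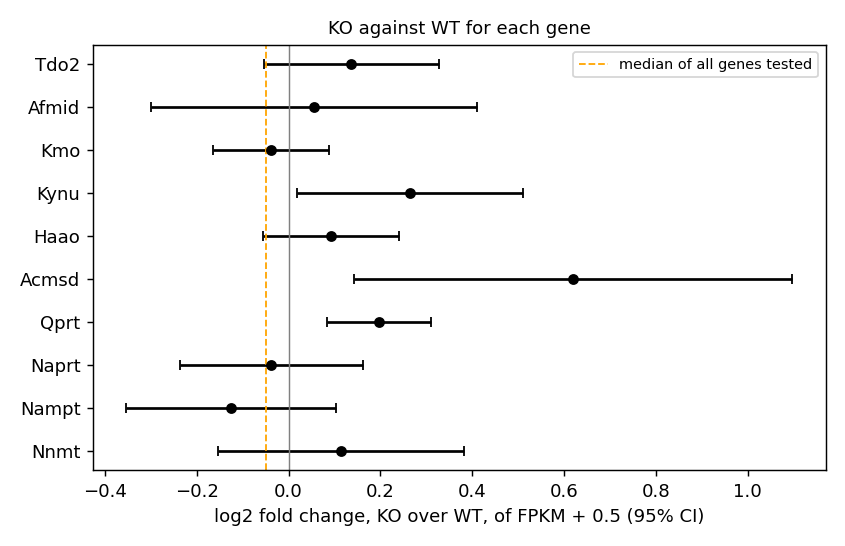
Log2 fold change of each gene, KO over WT, on FPKM + 0.5 (horizontal axis), with 95% confidence intervals from limma, 5 libraries per genotype. The intervals of Kynu, Acmsd and Qprt lie above 0 before adjustment, and the dashed line marks the median of all genes tested, -0.05.

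The enzymes that enter the NAD pool elsewhere overlapped between the genotypes. Naprt, which converts nicotinic acid, was at 49.3, 56.4, 46.1, 45.6 and 55.1 FPKM in KO replicates 1 to 5, against 57.8, 42.2, 52.0, 52.8 and 54.9 FPKM in WT replicates 1 to 5. WT replicate 2 was the lowest library and WT replicate 1 the highest, so all KO values lay inside the WT range. The fold was 0.974 (95% CI 0.849 to 1.12, limma adjusted p = 0.904), and its direction turned with median-of-ratios scaling, with quantile normalization and without WT replicate 1. The exons of Naprt share 277 bases with Eef1d on the same strand, which was at 69.96 to 95.23 FPKM in the 10 libraries.

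Nampt, the rate-limiting enzyme of salvage from nicotinamide and a known target of the circadian clock, was at 14.4, 10.7, 12.6, 10.8 and 11.7 FPKM in KO replicates 1 to 5. In WT replicates 1 to 5 it was at 10.8, 12.3, 13.75, 13.45 and 15.6 FPKM. The groups overlapped, and the fold was 0.917 (95% CI 0.783 to 1.07, limma adjusted p = 0.686). Of 16 clock genes tested, 7 were higher (43.75%, beside 34.9% of all genes tested) and 9 lower in KO. None of them passed (median log2 fold change -0.10). The clock repressors Nr1d1 and Nr1d2 were at 46.7 ± 13.3 and 11.4 ± 2.55 FPKM in KO, against 63.9 ± 13.6 and 16.3 ± 4.10 FPKM in WT, and Cry1 at 4.51 ± 1.32 FPKM in KO and 3.27 ± 0.330 FPKM in WT (SD, n = 5 each). Within each genotype the clock gene Dbp spread widely, at 1.13, 8.25, 4.24, 9.59 and 17.33 FPKM in KO replicates 1 to 5. Its values in WT replicates 1 to 5 were 2.71, 5.5, 14.5, 37.91 and 46.24 FPKM. Per3 and Tef were also lowest in replicate 1 and highest in replicate 5 of both genotypes. Nfil3 fell from replicate 1 to replicate 5 in both. Nampt was lowest in replicate 1 and highest in replicate 5 in WT, but highest in replicate 1 in KO. The part of clock phase in the Nampt values was not tested.

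Nnmt, which methylates nicotinamide with S-adenosylmethionine, was at 148, 134, 154, 129 and 116 FPKM in KO replicates 1 to 5, against 107, 169, 137, 109.55 and 114 FPKM in WT replicates 1 to 5. All KO livers lay above the WT median, but WT replicate 2 was the highest of the 10 libraries. The fold was 1.08 (95% CI 0.899 to 1.30, limma adjusted p = 0.755), and 1.17 without WT replicate 2 (limma adjusted p = 0.403). Nnmt is abundant in fat tissue, and the 5 adipose markers summed to 0 to 0.59 FPKM in KO and 0 to 0.41 FPKM in WT.

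Ratios within each library do not depend on how the library was scaled, and 4 of them set the members against each other. The ratio of Acmsd to Qprt, exit from the NAD route over entry to it, was 0.0644, 0.0426, 0.0556, 0.0432 and 0.0277 in KO replicates 1 to 5, against 0.0281, 0.0565, 0.0260, 0.0243 and 0.0279 in WT replicates 1 to 5. It averaged 0.0467 ± 0.0140 in KO and 0.0326 ± 0.0135 in WT (SD, n = 5 each), and the groups overlapped through WT replicate 2 and KO replicate 5. The fold was 1.46, taken between the group means of the log2 ratio with no pseudocount. In every library Qprt RNA was therefore far above Acmsd RNA per length. Kmo over Tdo2 was 0.140 ± 0.0101 in KO and 0.158 ± 0.0179 in WT, and no KO liver lay above the WT median. Nnmt over Nampt was 11.4 ± 1.18 in KO and 9.80 ± 2.47 in WT, and all 5 KO livers lay above the WT median, within the WT range. Nampt over Naprt was 0.241 ± 0.0418 in KO and 0.256 ± 0.0415 in WT, with overlapping groups. These ratios are given as descriptions, with no test.

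**Figure D3:**
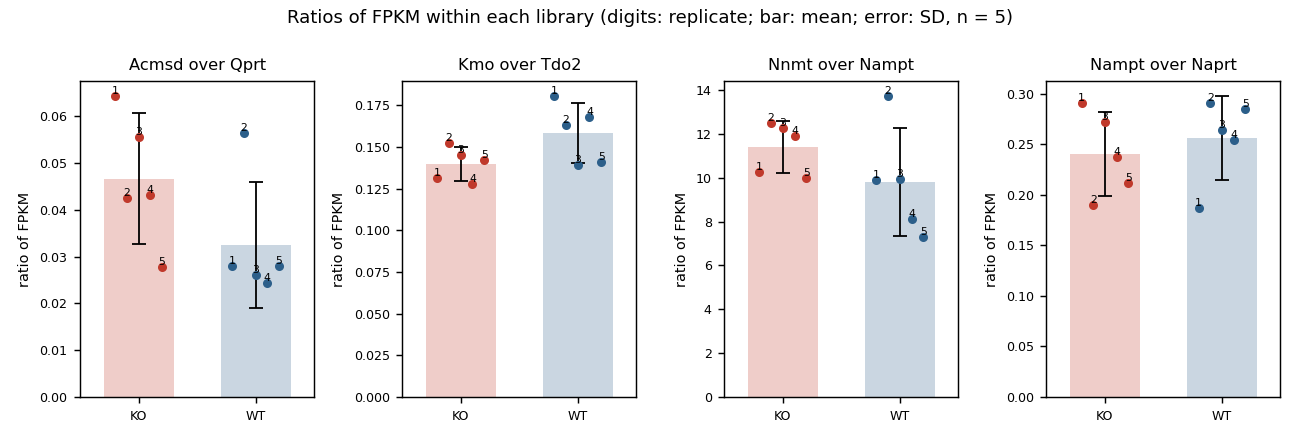
Ratios of FPKM between members within each library (vertical axes, from 0) in KO and WT livers; points are libraries with their replicate digit, bars are means and error bars are SD (n = 5 per genotype). Acmsd over Qprt lies between 0.0277 and 0.0644 in KO and between 0.0243 and 0.0565 in WT, and the groups overlap in all 4 panels.

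By level, the order over the 10 libraries was Tdo2, Haao, Nnmt, Kmo, Kynu, Qprt, Afmid, Naprt, Nampt and Acmsd. Tdo2 ranked 115 among the 12395 genes tested and averaged 2.95 times Haao, which ranked 347. The ranges over libraries did not overlap between Tdo2 and Haao, Haao and Nnmt, Naprt and Nampt, or Nampt and Acmsd, and in each of these pairs all 10 libraries kept the order. The neighbours from Nnmt down to Naprt overlapped, and Kynu lay above Qprt in 8 of 10 libraries. Nampt ranked 4098 and Acmsd 8693.

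Within a genotype, no library was the highest or the lowest for all 10 members, and correlations between members were not computed. Among KO livers, replicate 1 was highest for 4 members, Afmid, Kynu, Acmsd and Nampt, and lowest for Qprt. Among WT livers, replicate 5 was lowest for 5 members, Afmid, Kmo, Kynu, Haao and Qprt, and highest for Nampt. Qprt had the lowest p of the 10, and the genes whose values followed it most closely, after each genotype mean was subtracted, were Crtc2 (Pearson r = 0.976 over 10 libraries), Alg6 (0.951), Phf12 (0.949), Brd8 (0.923) and Mrpl51 (0.907). These are the highest correlations among all other genes tested, over few libraries, and are given as a description.

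Other genes of tryptophan and NAD metabolism were read from lists chosen with earlier results of these data known. No gene of any of the 9 lists passed the limma threshold. Over all genes tested, 34.9% were higher in KO (median -0.05). At an unadjusted limma p under 0.05, 2.69% were higher and 11.8% differed in either direction. The list counts are to be read beside these shares. Among 11 genes of tryptophan uptake and entry, 8 were tested, 5 higher and 3 lower in KO, with none at an unadjusted p under 0.05 (median log2 fold change 0.11). Ido2, a paralogous dioxygenase, was at 22.9 ± 3.56 FPKM in KO and 20.6 ± 3.03 FPKM in WT, and Ido1, the inducible enzyme of immune cells, at most 0.03 FPKM in any library. The amino acid transporter Slc7a5 was at 1.10 ± 0.255 FPKM in KO and 0.788 ± 0.199 FPKM in WT. Slc16a10, a transporter of aromatic amino acids, was at 25.5 ± 5.28 FPKM in KO and 21.5 ± 1.48 FPKM in WT, and Slc7a8 at 2.89 ± 0.385 FPKM in KO and 3.38 ± 0.650 FPKM in WT.

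The side arms of kynurenine had genes on both sides. Of 7 genes tested, 4 were higher and 3 lower in KO, none at an unadjusted p under 0.05 (median 0.02). Kyat3, an aminotransferase that makes kynurenate, was at 79.3 ± 14.4 FPKM in KO and 93.9 ± 11.0 FPKM in WT, and its relative Kyat1 at 32.6 ± 4.52 FPKM in KO and 29.4 ± 8.98 FPKM in WT. Downstream of Acmsd, the dehydrogenase Aldh8a1 was at 186 ± 8.81 FPKM in KO and 183 ± 7.22 FPKM in WT, and Gcdh, which oxidizes glutaryl-CoA, at 267 ± 17.1 FPKM in KO and 279.5 ± 17.2 FPKM in WT.

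In NAD assembly and salvage, 12 of 16 genes were tested, 4 higher and 8 lower in KO (median -0.04). The share higher was 33.3%, and 2 of the higher and 3 of the lower genes were at an unadjusted p under 0.05. Pnp and Pnp2, purine nucleoside phosphorylases that also release nicotinamide from its riboside, were at 92.7 ± 9.21 and 13.4 ± 1.69 FPKM in KO, against 77.4 ± 10.5 and 10.3 ± 1.86 FPKM in WT. Nnt, the mitochondrial transhydrogenase that couples NADH to NADPH, was at 46.45 to 51.08 FPKM in KO and 51.38 to 56.83 FPKM in WT, without overlap (limma adjusted p = 0.255). Separate groups in either direction were found in 2.79% of the genes tested. Nmnat1 and Nadsyn1, which complete NAD, were at 8.02 ± 1.03 and 8.72 ± 0.969 FPKM in KO, against 7.27 ± 0.556 and 8.98 ± 1.02 FPKM in WT. Of 16 NAD consumers tested, 5 were higher and 11 lower, that is 31.25% higher beside 34.9% over all genes tested. None of these consumers was at an unadjusted p under 0.05 (median -0.07). Their lowest p-values belonged to the mitochondrial sirtuins Sirt5 and Sirt4 and the NAD hydrolase Cd38, which were at 5.47 ± 0.638, 8.37 ± 2.32 and 6.24 ± 0.950 FPKM in KO, against 6.39 ± 0.896, 9.83 ± 0.623 and 7.12 ± 0.791 FPKM in WT.

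**Figure D4:**
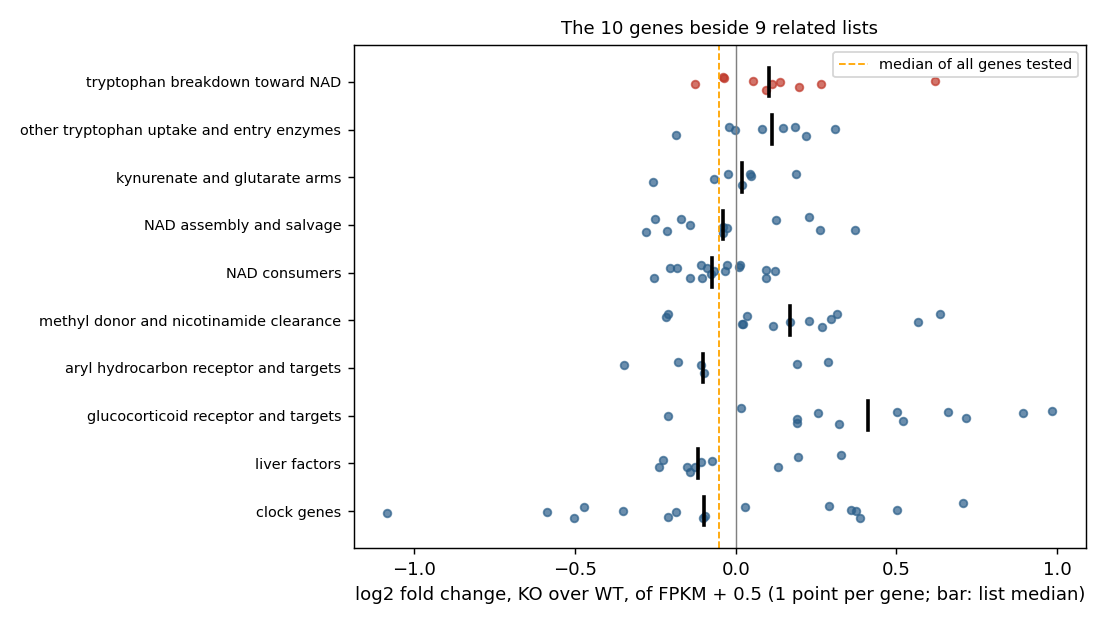
Log2 fold change, KO over WT, on FPKM + 0.5 (horizontal axis) of each tested gene in the tryptophan to NAD set (top row) and in 9 related lists; short bars are list medians and the dashed line is the median of all genes tested. The set has a median of 0.10, the glucocorticoid list one of 0.41 and the NAD consumers one of -0.07, and no gene shown passed the adjusted threshold.

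Around Nnmt, 11 of 13 methyl donor and nicotinamide clearance genes were higher in KO and 2 lower, with 6 and 1 at an unadjusted p under 0.05 (median 0.17). Aox3, an aldehyde oxidase that acts on methylated nicotinamide, was at 58.7 ± 4.01 FPKM in KO and 47.9 ± 6.38 FPKM in WT (limma adjusted p = 0.208). Cth, which makes cysteine from cystathionine, was at 429 ± 70.3 FPKM in KO and 278 ± 60.1 FPKM in WT, and Bhmt, which remethylates homocysteine, at 5026 ± 547 FPKM in KO and 3472 ± 934 FPKM in WT.

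Tdo2 is a known glucocorticoid target, and 11 of 12 genes of the glucocorticoid list were higher in KO, 3 of them at an unadjusted p under 0.05 and 1 lower gene likewise (median 0.41, none past the threshold). Tat, which starts tyrosine breakdown, was at 621 to 1484 FPKM in KO and 378 to 558 FPKM in WT, without overlap (limma adjusted p = 0.126). Separate groups with KO higher were found in 0.581% of the genes tested. Tsc22d3 was at 66.6 ± 21.3 FPKM in KO and 41.0 ± 13.2 FPKM in WT. The receptor gene Nr3c1 was at 14.8 ± 1.54 FPKM in KO and 17.2 ± 1.46 FPKM in WT. Their part in the Tdo2 values was not tested. Kynurenine is a ligand of the aryl hydrocarbon receptor, and of its 6 tested list genes 2 were higher and 4 lower, with 2 and 1 at an unadjusted p under 0.05 (median -0.10). Cyp1a2, a classical target, was at 149 ± 16.4 FPKM in KO and 122 ± 18.5 FPKM in WT, Nqo1 at 5.89 ± 0.592 FPKM in KO and 7.64 ± 0.977 FPKM in WT, and Ahr at 11.9 ± 1.13 FPKM in KO and 10.4 ± 1.02 FPKM in WT. Of 10 liver transcription factors 3 were higher (30%) and 7 lower, beside 34.9% higher over all genes tested. None of these factors was at an unadjusted p under 0.05 (median -0.12). Foxa1, Foxa2 and Nr1h4, which had their lowest p-values, were at 5.26 ± 0.783, 19.6 ± 1.30 and 52.8 ± 9.60 FPKM in KO, against 6.19 ± 0.563, 21.5 ± 2.05 and 61.8 ± 5.92 FPKM in WT.

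Kmo and Kynu are also expressed by macrophages. Of 11 Kupffer cell and macrophage markers 1 was higher and 10 lower in KO, where 34.9% of all genes tested were higher. None of these markers passed the limma threshold, and 0 were at an unadjusted p under 0.05. Their sums were 384 to 559 FPKM in KO and 433 to 598 FPKM in WT. The 4 kidney markers, from an organ where several of these enzymes are also abundant, summed to at most 0.02 FPKM in any KO library and 0 in WT. The defining kidney gene Umod and 2 others were listed at 0 in all 10 libraries.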

How the data were processed

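Poly(A)-selected RNA of 10 liver samples was sequenced in paired ends, per the labels' protocols. The authors deposited FPKM, rounded to 2 decimals, for 47729 genes in 10 named columns, which were matched to the library names in the labels; 2 columns without a name or values were not used. STAR, RSEM, R 4.0.2, DESeq2, DESeq and the build mm10 are named in the submitters' processing notes; what each did, the annotation release and the strand setting are not given in the sources. A count test cannot be run on FPKM, and none was.

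The depth estimate used genes with 1 annotated transcript of 350 to 1000 bases, by choosing the fragment number and length at which values below 1 FPKM became whole fragments; 93.5% to 96.6% came within 0.1 fragment. KO was compared with WT on log2(FPKM + 0.5) by limma 3.58.1 in R 4.3.3, for the 12395 genes whose mean reached 0.5 FPKM; the test was checked on simulated data. The test was two-sided with a trended, robust prior, and p-values were adjusted by Benjamini-Hochberg at a threshold of 0.05. Exact permutation tests (scipy 1.17.1, Python 3.11.15) covered all 252 regroupings of the 10 libraries on the log2 scale. The members, the 9 pathway lists and the 15 marker lists (206 symbols, all matched, 3 through older names) were chosen with earlier results of these data known. Named list genes are the 3 of lowest p in each pathway list. Ido1, Ido2, Aldh8a1, Nmnat1, Nadsyn1, Dbp, Per3, Tef and Nfil3 were added after their values were seen. The account of pericentral and periportal markers in WT replicate 2 was likewise added after their values were seen. The alternatives were 20 refits: a pseudocount of 0.1 or 1, a minimum mean of 2 FPKM or no filter, 3 other scalings (TPM, median-of-ratios, quantile), limma array weights, a replicate block, a prior without trend or robustness, and each of the 10 libraries left out. Coordinates of exons are from GENCODE M21 (GRCm38, the assembly behind mm10). Promoter sequence is not reported here.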

Additional observations from a re-analysis of the deposited data

Results flagged for a closer look

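Within a group of 5 libraries, the highest or lowest was marked where its gap to the nearest other exceeded 0.71 of the group's range (Dixon's test at 95%), which chance alone gives in about 5% of groups. Of 84 groups examined, 4 were marked. Acmsd was at 3.95 FPKM in WT replicate 2, and the other WT livers were at 1.70 to 1.85 FPKM. The ratio of Acmsd to Qprt was 0.0565 in the same library, and 0.0243 to 0.0281 in the other WT livers. Afmid was at 45.79 FPKM in WT replicate 5, and the other WT livers were at 60.8 to 65.95 FPKM. Foxa1 was at 3.91 FPKM in KO replicate 1, and the other KO livers were at 5.35 to 5.87 FPKM.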

How the results depend on the processing

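No member and no gene of the 9 lists passed the threshold under any of the 20 alternatives; the smallest adjusted p of a member was 0.0991, for Acmsd without WT replicate 2. Tdo2, Kynu, Haao, Acmsd, Qprt and Nnmt stayed higher in KO and Nampt lower under all of them, with log2 fold changes of 0.18 to 0.25 for Qprt, 0.53 to 0.81 for Acmsd and 0.19 to 0.36 for Kynu. The direction turned for Kmo with median-of-ratios scaling (0.0148) and for Afmid with array weights (-0.00656). For Naprt it turned with median-of-ratios scaling (0.0149) and quantile normalization (0.00780). The median of all genes tested was -0.0503 in the main fit, -0.00396 with median-of-ratios scaling and -0.00556 with quantile normalization. The cause of these turns was not tested. Leaving out single libraries moved Afmid between -0.0584 and 0.174 and Naprt between -0.110 and 0.00283. Over all genes, 8 passed; 5 did with no filter, with no trend or robust prior and with the replicate block, 18 with array weights, and 4 to 18 when single libraries were left out, 18 of them without WT replicate 2. At an unadjusted p under 0.05 the genes split 334 higher and 1124 lower, against 655 and 632 with median-of-ratios scaling. The labels do not say that equal replicate numbers mark a shared source, so the numbers were not taken as pairs in the main fit. The correlation of deviations between same-numbered samples ran from -0.02 to 0.20. KO and WT replicate 1 correlated best with each other, as did KO and WT replicate 5. Some clock genes followed the replicate number in both genotypes. Nfil3 fell from 28.87 FPKM in replicate 1 to 9.15 FPKM in replicate 5 in KO, and from 21.65 to 6.48 FPKM in WT. Whether equal numbers mark a shared source was not tested. The replicate block left 0 members called (smallest limma adjusted p = 0.183 for Kynu, then 0.240 for Qprt). Acmsd rested on about 72 to 289 fragments per library and Nampt on 39 to 1543, a range set by which annotated transcript is assumed.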

Other observations

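Zonation markers are genes made mainly by periportal or by pericentral hepatocytes. In bulk RNA their levels do not locate other transcripts along the lobule. Of 9 periportal markers, 8 were higher in KO and 1 lower, and none passed the limma threshold (median log2 fold change 0.49). At an unadjusted p under 0.05, 6 of them were higher, where 2.69% of all genes tested were. Cps1 is also among the hepatocyte markers. Sds, a periportal serine dehydratase, was at 234 to 337 FPKM in KO and 119 to 231 FPKM in WT, without overlap (limma adjusted p = 0.140). Of 8 pericentral markers, 4 were higher and 4 lower, 3 of them higher at an unadjusted p under 0.05 (median 0.12). The glutamate transporter Slc1a2 was at 62.9 to 70.3 FPKM in KO and 44.2 to 62.3 FPKM in WT, without overlap (limma adjusted p = 0.195). Of all genes tested, 0.581% had separate groups with KO higher. Whether zonation has a part in the Kynu, Acmsd or Qprt values was not tested.

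Markers of other cells had no gene past the limma threshold. The share of all genes tested that were higher in KO was 34.9%. In KO, 3 of 7 tested sinusoidal endothelial markers were higher, as were 1 of 8 stellate cell, 1 of 4 cholangiocyte, 1 of 5 lymphocyte, 1 of 4 recruited myeloid, 1 of 3 neutrophil and 1 of 5 erythroid markers. At an unadjusted limma p under 0.05 there was 1 gene among these lists, where 11.8% of all genes tested differed in either direction. It was Ccr2 of recruited monocytes, at 0.480 ± 0.147 FPKM in KO and 0.744 ± 0.194 FPKM in WT (SD, n = 5 each). Its mean over the 10 libraries, 0.612 FPKM, was close to the filter of 0.5 FPKM.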
